A study of Mus musculus with 16 samples.

Results

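The purinergic receptors and ectonucleotidases described here are 10 genes, P2rx4, P2rx7, P2ry6, P2ry12, P2ry13, P2ry14, Adora2a, Adora2b, Entpd1 and Nt5e, taken by symbol from a table of 23356 genes. All 10 were found once and had the status OK in each of the 8 conditions. RNA-seq had been carried out on BMDCs, dendritic cells grown from bone marrow, in 16 listed samples, 2 per condition. The BMDCs came from C57BL/6 wild-type (WT) mice and from Tmem173-/-, Irf1-/- and Irf3/7-/- mice, the last lacking a pair of interferon regulatory factors, on the same background. Bone marrow had been cultured for 6 days with GM-CSF and IL-4 at 10 ng/ml each and was then left untreated (NT) or given c-di-GMP (CDG) at 25 µg/ml for 18 h. All conditions therefore share the cytokines and the culture, and no cell type was sorted from it. How many mice gave the marrow of each sample is not stated. c-di-GMP is a bacterial cyclic dinucleotide that binds STING, the protein that Tmem173 encodes.

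Cells release ATP and other nucleotides when they are damaged or activated, and neighbouring cells read these with P2X receptors, which are channels opened by ATP, and P2Y receptors, which are G protein-coupled. On the cell surface CD39, encoded by Entpd1, degrades ATP and ADP to AMP, and CD73, encoded by Nt5e, degrades AMP to adenosine. Adenosine is read by its own receptors, of which those encoded by Adora2a and Adora2b raise cAMP. In dendritic cells and macrophages P2X7 is known for driving release of IL-1β, and adenosine for restraining inflammatory responses.

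The windows that RefSeq (GRCm38.p6) places in front of annotated starts are shown for P2ry14, P2rx7 and Entpd1, which differed between genotypes, and for P2ry13, the neighbour of P2ry14 that was called in no comparison. Such windows matched 8 of the 10 members, 13 windows in all, and each holds the 250 bases before a start, read 5′ to 3′ on the strand of the gene. Both strands were searched for the interferon-stimulated response element (ISRE), for TTCNNNGAA, the STAT pattern, for TGANTCA, the AP-1 pattern, and for the NF-kB site. Capitals mark a match, and 2 of the sequences below hold none. The P2ry14 window is chr3:59131329-59131578 on the minus strand, the P2ry13 window is chr3:59210883-59211132 on the minus strand, the P2rx7 window is chr5:122643677-122643926 on the plus strand, of which the last 16 bases lie in an exon of GENCODE M21, and the Entpd1 window is chr19:40659520-40659769 on the plus strand.
P2ry14: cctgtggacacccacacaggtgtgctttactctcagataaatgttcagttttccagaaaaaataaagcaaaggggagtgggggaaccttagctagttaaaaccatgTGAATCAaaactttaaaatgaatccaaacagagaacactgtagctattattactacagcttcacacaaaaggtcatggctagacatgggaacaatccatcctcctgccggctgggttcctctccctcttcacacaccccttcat
P2ry13: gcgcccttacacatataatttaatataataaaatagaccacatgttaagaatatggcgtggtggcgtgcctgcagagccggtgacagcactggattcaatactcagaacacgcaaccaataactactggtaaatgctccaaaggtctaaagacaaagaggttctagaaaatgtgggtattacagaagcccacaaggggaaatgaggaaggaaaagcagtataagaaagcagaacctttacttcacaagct
P2rx7: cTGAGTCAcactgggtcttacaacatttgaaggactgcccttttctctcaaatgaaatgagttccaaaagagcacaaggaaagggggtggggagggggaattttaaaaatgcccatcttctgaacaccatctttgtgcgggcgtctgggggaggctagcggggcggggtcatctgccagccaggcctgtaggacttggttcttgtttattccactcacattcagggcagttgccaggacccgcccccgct
Entpd1: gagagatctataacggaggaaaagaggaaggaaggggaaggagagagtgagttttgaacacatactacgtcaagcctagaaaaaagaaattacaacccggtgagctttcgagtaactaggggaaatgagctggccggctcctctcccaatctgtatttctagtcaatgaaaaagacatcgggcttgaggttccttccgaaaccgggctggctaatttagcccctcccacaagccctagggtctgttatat
The P2ry14 match is TGAATCA, 144 to 138 bases before the start, and the P2rx7 match is TGAGTCA, 249 to 243 bases before. A further P2ry14 window, chr3:59153493-59153742, holds TGACTCA 202 to 196 bases before its start, and 126 of its bases lie in exons of GENCODE M21. The remaining P2ry14 windows held no match. The Entpd1 window shown lies inside the annotated gene, and another, chr19:40612116-40612365, lies directly before the gene and held no match either. A P2ry12 window, chr3:59262986-59263235, holds the NF-kB site 51 to 42 bases before its start. In all, 4 of the 13 windows held a match, and none held the ISRE or TTCNNNGAA. Of 32851 RefSeq windows of the same length, 6.75% held TGANTCA, 7.25% the NF-kB site, 2.98% the ISRE and 7.02% TTCNNNGAA. These matches describe the letters of the windows and were not tested against binding.

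The table gives for each gene 1 FPKM per condition, a fragment count scaled by transcript length and by the mapped total, together with the lower and upper bound that Cuffdiff set around it. Replicates had been combined before deposition, so no spread between samples can be read and no test over samples was made. The paper states a target for the depth, but the reads obtained from each sample cannot be read from FPKM. Where a gene reached 10 FPKM throughout, as 4723 did, the interval's half-width had a median of 25.2% to 25.7% of the FPKM. Differences are given as log2 after adding 0.1 FPKM, which understates the change of genes with low FPKM. A gene with at least 1 FPKM in a compared condition was examined, and was called where the difference passed 2-fold and the intervals did not overlap.

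The targeted genes and the markers of cell types were read first. Tmem173 was at 8.97 and 7.49 FPKM in Tmem173-/- BMDCs against 77.0 to 118 FPKM elsewhere. Irf1 in Irf1-/- BMDCs was at 25.9 FPKM untreated and 116 FPKM treated, against 149 and 245 FPKM in WT. Its log2 change of 2.15 with treatment in Irf1-/- BMDCs was called. In Tmem173-/- BMDCs Irf1 was at 24.1 FPKM untreated and 23.3 FPKM treated, so that a low Irf1 level is not particular to the Irf1-/- label. Irf7 in Irf3/7-/- BMDCs was at 1.07 and 4.97 FPKM against 15.2 and 687 FPKM in WT. Irf3 in the untreated Irf3/7-/- condition was at 7.74 FPKM against 19.9 FPKM, but in the treated condition labelled Irf3/7-/- it was at 20.2 FPKM against 15.8 FPKM in treated WT, so that Irf3 does not bear out that label while Irf7 does. Every result on treated Irf3/7-/- BMDCs and on Irf1-/- BMDCs below rests on the labels. The sum of 11 dendritic cell markers lay between 4627 and 7540 FPKM in the 8 conditions, with Zbtb46 at 11.6 to 23.0 FPKM and Itgax at 135 to 369 FPKM. Cd74, at 3336 to 4983 FPKM, made up most of this sum, and single markers differed between genotypes. In treated Tmem173-/- against treated WT BMDCs, Ccr7, Ciita, Batf3 and Xcr1 were called lower, Ccr7 at 114 against 1257 FPKM, and Itgax and Clec9a higher. H2-Ab1 and Ciita were called lower in Irf1-/- than in WT BMDCs, untreated and treated. Markers of other cells also differed widely between genotypes: the sum of 12 T and NK cell genes was lowest in Tmem173-/- at 29.7 and 31.0 FPKM and highest in treated Irf3/7-/- at 1152 FPKM. The sum of 8 neutrophil genes was highest in Tmem173-/- at 19873 and 14427 FPKM, against 1428 to 4076 FPKM elsewhere. In such bulk samples, fewer cells of a type and less RNA per cell cannot be told apart.

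With c-di-GMP, P2ry14 and Adora2a rose and P2ry6 fell in WT, Irf1-/- and Irf3/7-/- BMDCs, and no member was called in Tmem173-/- BMDCs. In WT BMDCs 3 of the 9 members examined were called, 2 higher and 1 lower, where 20.5% of all genes examined were called. In Tmem173-/- BMDCs it was 0 of 10, and 0.0552% of all genes. In Irf1-/- BMDCs 4 of 8 members were called, the same 3 and P2rx4, beside 17.5% of all genes, and in Irf3/7-/- BMDCs 3 of 9, beside 17.9%. The median log2 change of the members examined was 0.58 in WT, 0.64 in Irf1-/-, 0.71 in Irf3/7-/- and 0.03 in Tmem173-/- BMDCs, while the median of all genes was between -0.02 and 0.00 in these comparisons. In WT and in Irf3/7-/- BMDCs the median was the value of P2ry13, which was not called and whose intervals overlapped. These medians are therefore not read as a rise of the whole set.

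**Figure D1:**
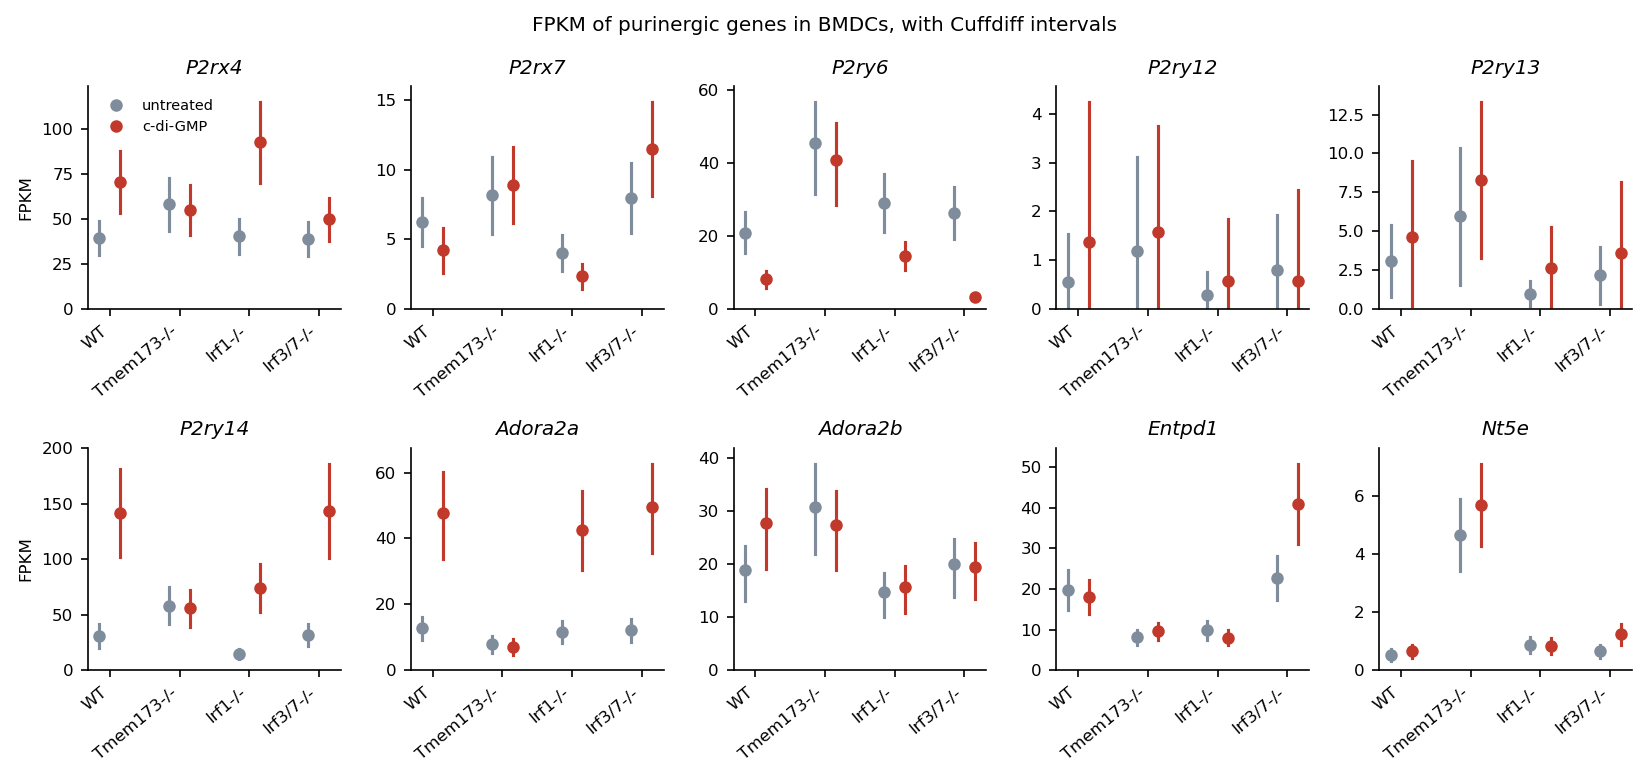
FPKM of the 10 genes (vertical axes, each from 0) in the 4 genotypes, untreated in grey and c-di-GMP in red; points are the deposited FPKM and bars the Cuffdiff intervals. P2ry14 and Adora2a stand high in red in 3 genotypes and not in Tmem173-/-, P2ry6 runs the other way, and Nt5e is above 4 FPKM only in Tmem173-/-.

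P2ry14 reached the highest FPKM among the members. It encodes the receptor for UDP-glucose and other UDP-sugars, and lies at chr3:59113855-59153618 on the minus strand (GRCm38). Untreated, it was at 30.7 FPKM (interval, 20.1 to 41.2) in WT, 14.6 FPKM (9.84 to 19.4) in Irf1-/-, 31.6 FPKM (21.3 to 41.9) in Irf3/7-/- and 58.1 FPKM (41.3 to 74.9) in Tmem173-/- BMDCs. c-di-GMP brought it to 141 FPKM (101 to 181) in WT, 74.3 FPKM (52.7 to 95.8) in Irf1-/-, 143 FPKM (101 to 186) in Irf3/7-/- and to 55.6 FPKM (38.7 to 72.4) in Tmem173-/- BMDCs. Treated WT and Irf3/7-/- BMDCs were highest and untreated Irf1-/- BMDCs lowest, and both steps from Irf1-/- up to WT, untreated and treated, were between intervals that did not overlap. The log2 change with treatment was 2.20 in WT, 2.33 in Irf1-/- and 2.18 in Irf3/7-/- BMDCs, all called, and -0.06 in Tmem173-/- BMDCs. Untreated Irf1-/- BMDCs were already lower than untreated WT by a called log2 difference of -1.06, and treated Irf1-/- BMDCs differed from treated WT by -0.93, short of 2-fold. The responses of Irf1-/- and WT BMDCs differed by 0.14 on the log2 scale, which was not tested. Treated Tmem173-/- BMDCs were lower than treated WT by -1.35, which was called. The untreated Tmem173-/- level was above that of WT with a log2 difference of 0.92, short of 2-fold, and the intervals narrowly did not overlap.

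Adora2a encodes an adenosine receptor that raises cAMP (chr10:75316877-75334784, plus strand). Its untreated level was 12.6 FPKM (9.12 to 16.1) in WT, 11.6 FPKM (8.22 to 14.9) in Irf1-/-, 12.2 FPKM (8.66 to 15.6) in Irf3/7-/- and 7.84 FPKM (5.08 to 10.2) in Tmem173-/- BMDCs. The treated level was 47.6 FPKM (33.9 to 60.3) in WT, 42.7 FPKM (30.5 to 54.4) in Irf1-/-, 49.4 FPKM (35.7 to 62.6) in Irf3/7-/- and 6.97 FPKM (4.60 to 9.31) in Tmem173-/- BMDCs. The 8 levels fall in 1 low group of 5 conditions and 1 high group of 3, and within each group every pair of neighbours overlapped. The log2 change was 1.90 in WT, 1.87 in Irf1-/- and 2.01 in Irf3/7-/- BMDCs, all called, and -0.17 in Tmem173-/- BMDCs. The response differed from that of WT by -0.03 in Irf1-/-, 0.11 in Irf3/7-/- and -2.07 in Tmem173-/- BMDCs. None of these differences between responses was tested. Against treated WT, Adora2a was called lower in Tmem173-/- BMDCs at -2.76 and not in Irf1-/- at -0.16 or Irf3/7-/- BMDCs at 0.05.

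Adora2b, whose receptor is also coupled to cAMP but has a lower affinity for adenosine (chr11:62248984-62266453, plus strand), lay between 14.8 and 30.8 FPKM in the 8 conditions and was called in none of the 11 comparisons. Its log2 change with treatment was 0.55 in WT, 0.08 in Irf1-/-, -0.04 in Irf3/7-/- and -0.17 in Tmem173-/- BMDCs. Untreated, Adora2b had the higher FPKM of both adenosine receptors in every genotype, but their intervals were apart only in Tmem173-/- BMDCs. After treatment Adora2a had the higher FPKM in WT, Irf1-/- and Irf3/7-/- BMDCs. In treated WT BMDCs their intervals, 33.9 to 60.3 FPKM for Adora2a and 19.2 to 34.2 FPKM for Adora2b, just overlapped.

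P2ry6, the UDP receptor (chr7:100937630-100974649, minus strand), was called in 7 of the 11 comparisons, more than any other member. Untreated, it was at 20.9 FPKM (15.2 to 26.6) in WT, 29.1 FPKM (21.0 to 36.9) in Irf1-/-, 26.3 FPKM (19.0 to 33.3) in Irf3/7-/- and 45.5 FPKM (31.6 to 56.6) in Tmem173-/- BMDCs. The treated levels were 8.17 FPKM (5.79 to 10.4) in WT, 14.5 FPKM (10.5 to 18.3) in Irf1-/-, 3.26 FPKM (2.22 to 4.27) in Irf3/7-/- and 41.0 FPKM (28.4 to 51.0) in Tmem173-/- BMDCs. The 3 lowest conditions were the treated Irf3/7-/-, WT and Irf1-/- BMDCs, in that order, and the intervals of neighbours among them did not overlap. The highest were both Tmem173-/- conditions, and the highest of all levels was 13.9 times the lowest. The log2 change was -1.35 in WT, -1.001 in Irf1-/- and -2.97 in Irf3/7-/- BMDCs, all called, and -0.15 in Tmem173-/- BMDCs. The Irf1-/- call sat at the threshold and was lost with a pseudocount of 1 FPKM, at -0.96. Between treated conditions, P2ry6 was called higher in Tmem173-/- than in WT at 2.31 and lower in Irf3/7-/- than in WT at -1.30, while the difference of 0.82 between Irf1-/- and WT was not called. Treated Irf1-/- and treated Irf3/7-/- BMDCs differed by 2.12, which was called. Untreated Tmem173-/- BMDCs were also higher than untreated WT, with a called difference of 1.12.

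**Figure D2:**
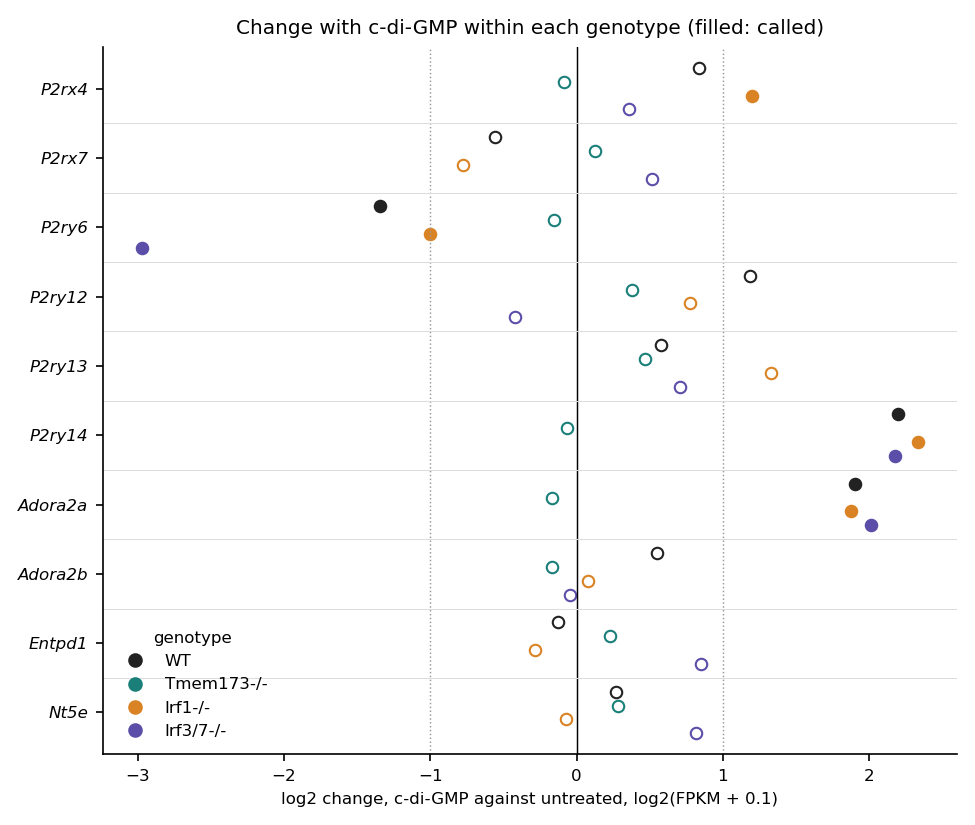
Log2 change with c-di-GMP (horizontal axis, log2 of FPKM + 0.1) of each gene in the 4 genotypes, 1 row of points per gene; filled points were called and dotted lines mark 2-fold. P2ry14, Adora2a and P2ry6 carry filled points in WT, Irf1-/- and Irf3/7-/-, and every Tmem173-/- point lies between -0.17 and 0.47.

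The ATP-gated channels moved less. P2rx7 (chr5:122643911-122691432, plus strand), whose channel opens at high ATP, had untreated levels of 6.23 FPKM (4.50 to 7.95) in WT, 4.03 FPKM (2.74 to 5.33) in Irf1-/-, 7.97 FPKM (5.46 to 10.5) in Irf3/7-/- and 8.15 FPKM (5.39 to 10.9) in Tmem173-/- BMDCs. Its treated levels were 4.20 FPKM (2.59 to 5.81) in WT, 2.32 FPKM (1.43 to 3.21) in Irf1-/-, 11.5 FPKM (8.10 to 14.8) in Irf3/7-/- and 8.90 FPKM (6.16 to 11.6) in Tmem173-/- BMDCs. No pair of neighbours in the order of the 8 levels was separated by its intervals, but treated Irf1-/- and treated Irf3/7-/- BMDCs stood at opposite ends. The change with treatment was called in no genotype, at -0.56 in WT, -0.77 in Irf1-/-, 0.52 in Irf3/7-/- and 0.13 in Tmem173-/- BMDCs. Against treated WT, P2rx7 was called higher in Tmem173-/- at 1.07 and in Irf3/7-/- BMDCs at 1.43, and the former was lost with a pseudocount of 1 FPKM, at 0.93. The difference between treated Irf1-/- and treated Irf3/7-/- BMDCs was -2.26, also called.

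P2rx4 (chr5:122707544-122729738, plus strand) encodes a channel opened by lower ATP and found largely on lysosomes. It was expressed at 38.8 to 58.4 FPKM in the untreated conditions, with overlapping intervals. With c-di-GMP the levels were 70.6 FPKM (53.2 to 87.8) in WT, 92.7 FPKM (70.0 to 115) in Irf1-/-, 49.8 FPKM (37.7 to 61.7) in Irf3/7-/- and 54.9 FPKM (40.8 to 69.0) in Tmem173-/- BMDCs. The rise in Irf1-/- BMDCs, 1.20 on the log2 scale, was called. In WT BMDCs the change of 0.84 was below 2-fold, although the treated interval lay above the untreated one of 29.9 to 48.8 FPKM. The change was -0.09 in Tmem173-/- and 0.36 in Irf3/7-/- BMDCs, and P2rx4 was called in no comparison between genotypes.

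P2ry12 (chr3:59216272-59262871) and P2ry13 (chr3:59207892-59210882), both ADP receptors on the minus strand, lie beside P2ry14. P2ry12 reached 1 FPKM in 3 of the 8 conditions, with levels from 0.288 to 1.58 FPKM, and the lower bound was 0 in all 8. P2ry13 reached 1 FPKM in 7 conditions, from 0.969 FPKM (0.142 to 1.81) in untreated Irf1-/- to 8.27 FPKM (3.24 to 13.3) in treated Tmem173-/- BMDCs. Neither gene was called in any of the 11 comparisons, and all neighbours in the order of their levels had overlapping intervals. The lowest and highest P2ry13 intervals given above did not overlap, but that pair is not among the comparisons. For P2ry13 the difference between untreated Irf1-/- and WT was -1.57, with overlapping intervals. All 3 P2Y genes lie inside Med12l, which is read from the opposite strand (chr3:59005825-59318682), and the table gives them a single locus, chr3:59006978-59344256, that it shares among 8 genes. The strand setting of the Cuffdiff run is not given in the sources used here, although the paper names a strand-aware option for its own quantification in SeqMonk, so that in these FPKM reads in the shared stretches cannot be told apart. Med12l itself, named here after its values were seen, lay between 0.171 and 0.566 FPKM. Gpr171, a receptor gene within the same locus, was called lower in untreated Irf1-/- than in untreated WT at -1.36. With treatment, which raised P2ry14 in 3 genotypes, Gpr171 went from 18.4 to 19.8 FPKM in WT, from 7.13 to 7.70 FPKM in Irf1-/- and from 15.1 to 33.5 FPKM in Irf3/7-/- BMDCs. None of these changes was called, the log2 change of 1.14 in Irf3/7-/- BMDCs passing 2-fold with overlapping intervals.

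Entpd1 encodes CD39 (chr19:40612366-40741602, plus strand). Untreated, it was at 19.7 FPKM (14.9 to 24.6) in WT, 9.76 FPKM (7.44 to 12.1) in Irf1-/-, 22.7 FPKM (17.3 to 28.0) in Irf3/7-/- and 8.09 FPKM (6.23 to 9.95) in Tmem173-/- BMDCs. Treated BMDCs had 18.1 FPKM (13.8 to 22.3) in WT, 7.99 FPKM (6.08 to 9.90) in Irf1-/-, 40.8 FPKM (30.9 to 50.8) in Irf3/7-/- and 9.52 FPKM (7.33 to 11.7) in Tmem173-/- BMDCs. The 8 levels formed 3 steps whose intervals did not overlap between steps: both Tmem173-/- and both Irf1-/- conditions were low, both WT conditions and untreated Irf3/7-/- were intermediate, and treated Irf3/7-/- was high. Treatment gave no call, with log2 changes of -0.13 in WT, -0.28 in Irf1-/-, 0.85 in Irf3/7-/- and 0.23 in Tmem173-/- BMDCs. In Irf3/7-/- BMDCs the untreated and treated intervals did not overlap, but the change was below 2-fold. Between genotypes it was called lower in untreated Tmem173-/- at -1.27, untreated Irf1-/- at -1.01 and treated Irf1-/- BMDCs at -1.17, and higher in the treated condition labelled Irf3/7-/- at 1.17, each against WT given the same treatment. Treated Tmem173-/- BMDCs differed from treated WT by -0.92, below 2-fold, with intervals that did not overlap. The untreated Irf1-/- call was lost with a pseudocount of 1 FPKM, at -0.95, and with median centring, at -0.97. Treated Irf1-/- and treated Irf3/7-/- BMDCs differed by -2.34, which was called.

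Entpd1 and the summed T and NK cell markers, of which 12 of the 14 listed genes were in the table, were both lower in Tmem173-/- and Irf1-/- than in WT BMDCs and both highest in treated Irf3/7-/- BMDCs. Their summed FPKM was 508 in untreated and 456 in treated WT BMDCs, 475 and 1152 in Irf3/7-/-, 89.8 and 121 in Irf1-/-, and 29.7 and 31.0 in Tmem173-/- BMDCs. With treatment of Irf1-/- BMDCs the sum was higher, and Entpd1 was at 7.99 against 9.76 FPKM with overlapping intervals. Gzma made up most of the highest sum, at 900 FPKM in treated Irf3/7-/- BMDCs, against 315 FPKM untreated and 349 and 329 FPKM in WT. Il7r did not follow the order of genotypes: it was called higher with treatment in WT, from 15.2 to 48.8 FPKM, in Irf1-/-, from 20.4 to 56.4 FPKM, and in Irf3/7-/- BMDCs, from 12.3 to 41.3 FPKM. Against WT, Cd3d, Cd3e, Cd3g, Gzma and Prf1 were called lower in untreated and in treated Irf1-/- BMDCs, while Thy1 and Cd2 were called in neither. In treated Irf1-/- BMDCs Thy1 was at 47.2 against 40.5 FPKM in WT, and Lck, at 6.16 against 8.62 FPKM, was not called. In Tmem173-/- BMDCs Gzma was listed at 0 in both conditions and Ncr1 in the untreated one, and Ncr1 was listed at 0 in both Irf1-/- conditions. Cd3e was at 0.0701 and 0.0103 FPKM in Tmem173-/- BMDCs, and Entpd1 at 8.09 and 9.52 FPKM. The sum of 7 basophil and mast cell genes was also highest in Irf3/7-/- BMDCs, at 170 and 262 FPKM against 59.6 to 93.6 FPKM elsewhere. The part of these cells in the Entpd1 differences was not tested.

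**Figure D3:**
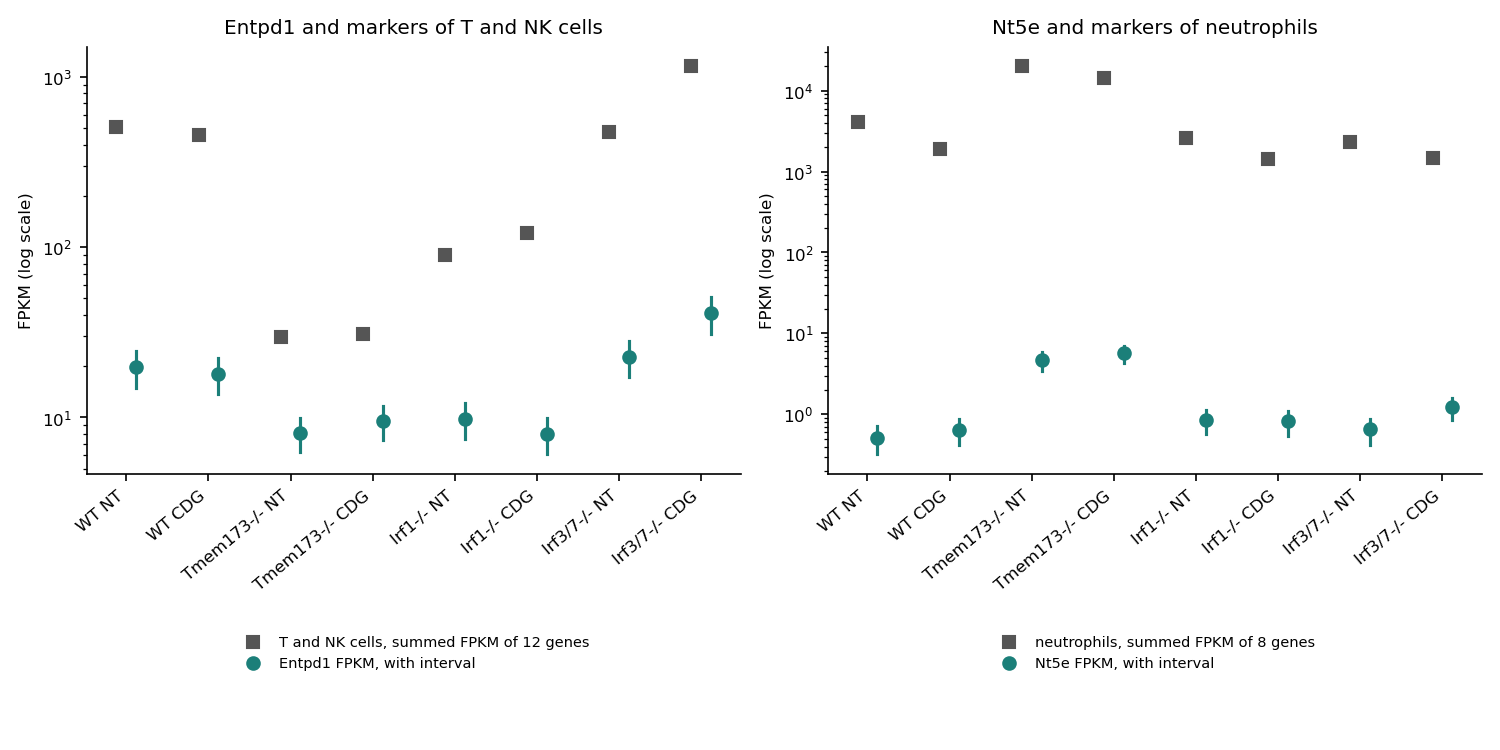
FPKM on log axes in the 8 conditions; left, Entpd1 with its Cuffdiff interval (circles and bars) beside the summed FPKM of 12 T and NK cell genes (squares); right, Nt5e beside the summed FPKM of 8 neutrophil genes. Squares and circles are low together in Tmem173-/- and Irf1-/- on the left, and high together in Tmem173-/- on the right.

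Nt5e, encoding CD73 (chr9:88327197-88372092, plus strand), was low outside Tmem173-/- BMDCs. Untreated, it was at 0.516 FPKM (0.322 to 0.711) in WT, 0.863 FPKM (0.578 to 1.14) in Irf1-/-, 0.653 FPKM (0.422 to 0.877) in Irf3/7-/- and 4.66 FPKM (3.41 to 5.90) in Tmem173-/- BMDCs. Treated cells had 0.645 FPKM (0.422 to 0.877) in WT, 0.817 FPKM (0.544 to 1.09) in Irf1-/-, 1.23 FPKM (0.855 to 1.60) in Irf3/7-/- and 5.68 FPKM (4.28 to 7.09) in Tmem173-/- BMDCs. Both Tmem173-/- intervals lay above those of all 6 other conditions. The called differences from WT were 2.95 untreated and 2.96 treated, and treatment changed Nt5e by 0.28 in Tmem173-/- and 0.82 in Irf3/7-/- BMDCs, neither called. The conditions in which Nt5e and P2ry6 were highest also had the highest summed FPKM of neutrophil and of macrophage genes. S100a8 and S100a9 made up most of the former sum and Lyz2 most of the latter. In treated Tmem173-/- against treated WT BMDCs, 7 genes of each list were called higher, beside 12.9% of all genes. Mertk was called lower there, at 3.74 against 16.9 FPKM. Cxcr2 was called lower in untreated Tmem173-/- than in untreated WT BMDCs, at 15.4 against 72.4 FPKM. The sum of 10 macrophage genes, led by Lyz2, was 9616 and 7811 FPKM in Tmem173-/- BMDCs against 656 to 1432 FPKM elsewhere. Of the neutrophil and macrophage lists no gene was listed at 0 in any condition, and S100a8, which leads the neutrophil list, has an FPKM above its own interval in the table. The part of these cells in the Nt5e and P2ry6 differences was not tested.

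Between genotypes, 5 of 10 members were called in treated Tmem173-/- against treated WT BMDCs, P2rx7, P2ry6 and Nt5e higher and P2ry14 and Adora2a lower, beside 26.3% of all genes examined. In treated Irf1-/- BMDCs Entpd1 alone was called, 1 of 9, beside 7.56% of all genes, and in treated Irf3/7-/- BMDCs 3 of 10 were called, P2rx7, Entpd1 and P2ry6, beside 7.3%. The 3 comparisons share the treated WT condition. Untreated, the counts were 3 of 10 in Tmem173-/- beside 11% of all genes, 2 of 8 in Irf1-/- beside 4.78%, and 0 of 8 in Irf3/7-/- BMDCs beside 2.04%. P2ry6, Entpd1 and Nt5e made up the first and P2ry14 and Entpd1 the second. Treated Irf1-/- and treated Irf3/7-/- BMDCs differed in 3 of 9 members, P2ry6 higher and P2rx7 and Entpd1 lower in Irf1-/-, beside 9.84% of all genes.

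**Figure D4:**
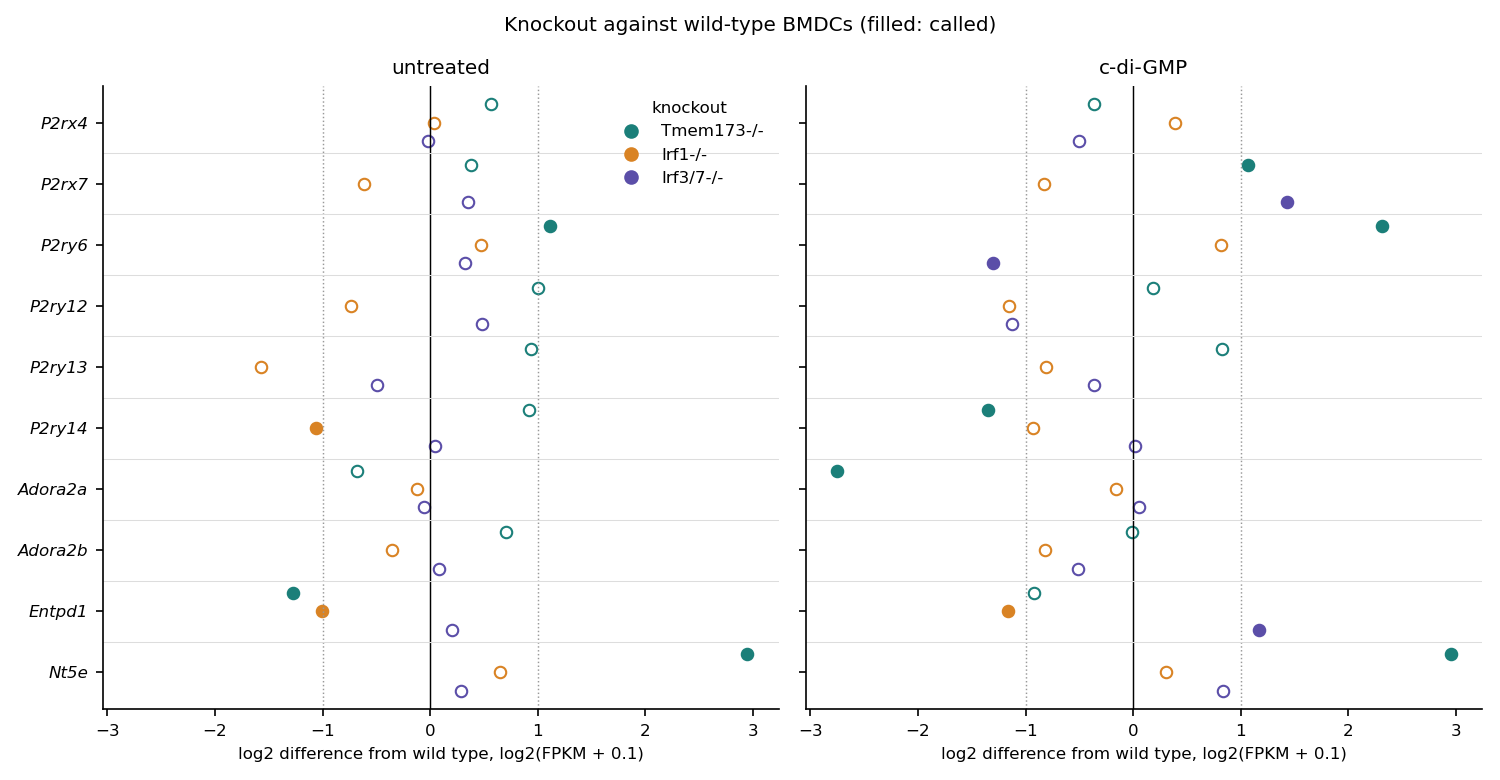
Log2 difference of each knockout from WT BMDCs (horizontal axes, log2 of FPKM + 0.1), untreated on the left and treated on the right; filled points were called and dotted lines mark 2-fold. Nt5e in Tmem173-/- lies near 3 on both sides, the Adora2a and P2ry14 points of Tmem173-/- are lower in the treated panel than in the untreated one, and no Irf3/7-/- point is filled in the untreated panel.

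The other genes of the pathway were read from 5 lists of 59 genes, all of which were in the table. In WT BMDCs 45 were examined, of which 11 rose and 7 fell with c-di-GMP, where 10.5% of all genes rose and 9.96% fell, and their median log2 change was 0.08. In Tmem173-/- BMDCs 0 of 41 were called, beside 0.0552% of all genes. In Irf1-/- BMDCs 6 of 44 rose and 7 fell, beside 9.67% and 7.81% of all genes. In Irf3/7-/- BMDCs 12 of 44 rose and 3 fell, beside 10.2% and 7.68%.

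Of the further receptors, 2 channel genes at low levels rose in WT, P2rx3 from 0.639 to 1.75 FPKM and P2rx6 from 0.125 to 1.23 FPKM, and the ADP receptor P2ry1 fell from 8.63 to 3.43 FPKM. P2rx3 reached 3.56 FPKM in treated Irf3/7-/- and 0.118 FPKM in treated Irf1-/- BMDCs. P2rx5 fell in Irf3/7-/- BMDCs, from 25.7 to 8.92 FPKM. The ATP and UTP receptor P2ry2 was higher in treated Irf1-/- and Irf3/7-/- than in treated WT BMDCs, at 7.36 and 6.65 against 2.98 FPKM.

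In the list of further ectonucleotidases and related enzymes, 4 of 7 examined rose in WT BMDCs and none fell, beside 10.5% and 9.96% of all genes. Cd38 and Bst1, related enzymes that cleave NAD, rose from 12.4 to 49.5 FPKM and from 15.1 to 62.6 FPKM. Enpp2, best known as the lysophospholipase autotaxin, rose from 0.583 to 7.08 FPKM. Acpp, an acid phosphatase that also turns AMP into adenosine, as CD73 does, rose from 4.60 to 10.2 FPKM. Cd38 was lower in Irf1-/- than in WT BMDCs both untreated, at 2.74 FPKM, and treated, at 4.86 FPKM, with called differences of -2.14 and -3.32. Bst1 followed the same order in Irf1-/- BMDCs, at 5.28 and 16.7 FPKM, and was at 72.1 FPKM in untreated Tmem173-/- BMDCs. Of 3 genes of nucleotide release that could be examined, Slc17a9, the vesicular nucleotide transporter, fell in WT BMDCs from 4.18 to 1.58 FPKM.

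Of 14 genes of adenosine uptake and purine metabolism, all examined in WT BMDCs, 5 rose and 5 fell, beside 10.5% and 9.96% of all genes. The equilibrative nucleoside transporter genes Slc29a1 and Slc29a2 fell, the former from 24.9 to 10.2 FPKM, and the concentrative transporter gene Slc28a2 rose from 0.860 to 5.17 FPKM. Ada, which deaminates adenosine, fell from 8.09 to 3.46 FPKM, Adk, which phosphorylates it, from 15.3 to 6.35 FPKM, and Ahcy, which forms it from S-adenosylhomocysteine, from 39.9 to 13.7 FPKM. Pnp, which cleaves inosine and guanosine, rose from 54.4 to 167 FPKM, and Xdh, which forms urate, from 39.4 to 81.4 FPKM. Pnp2 was called in the same comparisons with treatment, but it is a near copy of Pnp and reads may be shared. The AMP deaminase gene Ampd3 rose from 1.46 to 4.96 FPKM in WT and from 2.20 to 15.8 FPKM in Irf3/7-/- BMDCs. Slc29a1 also fell in Irf1-/- BMDCs, to 8.47 FPKM, and in Irf3/7-/- BMDCs, to 9.27 FPKM, and was at 30.4 and 28.1 FPKM in Tmem173-/- BMDCs. Ada was already low in untreated Tmem173-/- BMDCs, at 2.65 FPKM.

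**Figure D5:**
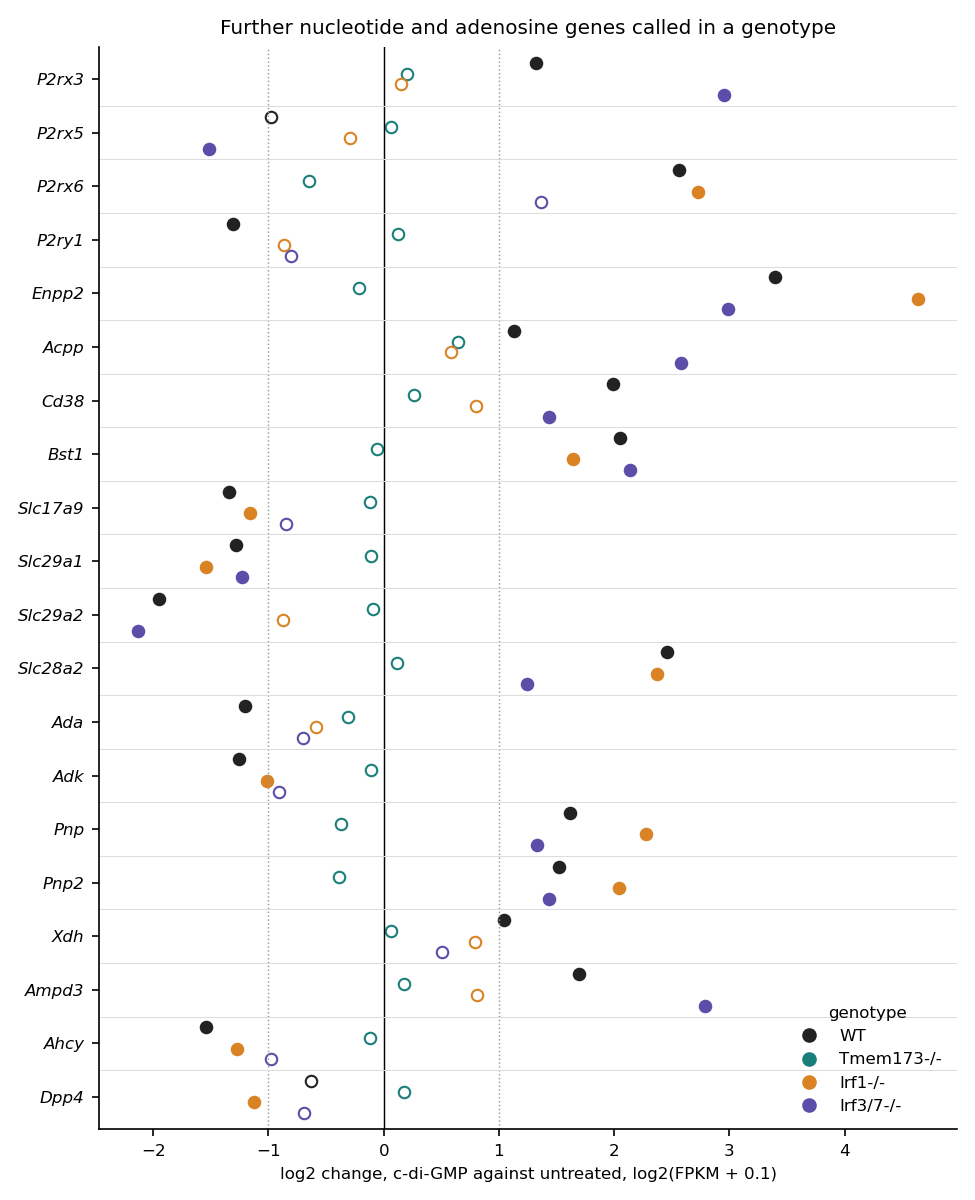
Log2 change with c-di-GMP (horizontal axis, log2 of FPKM + 0.1) of the 20 receptor, enzyme, release, uptake and metabolism genes beside the 10 members that were called in at least 1 genotype; filled points were called. Slc29a1, Bst1, Enpp2, Slc28a2, Pnp and Pnp2 have filled points in WT, Irf1-/- and Irf3/7-/-, and no Tmem173-/- point is filled.

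Of 15 genes that act in cAMP signalling downstream of these adenosine receptors, 14 were examined in WT BMDCs. None was called, beside 20.5% of all genes, while Adora2a itself rose. In Irf3/7-/- BMDCs Pde4b and Pde4d, which degrade cAMP, and Crem, a factor that cAMP regulates, rose by 1.28, 1.33 and 1.38 on the log2 scale. In Irf1-/- BMDCs the phosphodiesterase genes Pde2a and Pde3b fell by 1.11 and 1.05. The corresponding changes in WT BMDCs were 0.95 for Pde4b, 0.10 for Pde4d, 0.68 for Crem, -0.54 for Pde2a and -0.34 for Pde3b. The differences between these changes were not tested. Against treated WT, Pde3b was called lower in Irf1-/- BMDCs, beside 7.56% of all genes, and Pde2a higher in Irf3/7-/- BMDCs, beside 7.3%. In Tmem173-/- BMDCs Pde2a was called higher and Pde4b and Crem lower, beside 26.3%.

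Across the 8 conditions, the genes whose log2 levels ran closest to each member were found among 9268 genes with at least 5 FPKM in a condition. For Adora2a they were Nfkbib, Csrnp1 and Dnajb6, with Pearson r of 0.999, 0.998 and 0.997, and for P2ry14 they were Fam174a, Tlr7 and Zkscan6, with r of 0.990, 0.987 and 0.987. For P2ry6 they were N6amt1, Ap2a2 and Bub1b at 0.992, 0.991 and 0.991, and for Entpd1 Focad, Ets1 and Tle3 at 0.993, 0.988 and 0.988. For P2rx4 they were Apobr, Tmem65 and Pstpip1 at 0.996, 0.987 and 0.985, for P2rx7 Trnt1, Eif1a and Fam107b at 0.982, 0.974 and 0.973, and for Nt5e Mob4, Lyn and Asprv1 at 0.979, 0.977 and 0.972. Adora2b ran closest to 1700112E06Rik at 0.981, P2ry13 to Chi3l1 at 0.977 and P2ry12 to Mmp14 at 0.963. Among the members themselves, the lowest r was -0.91, between Adora2a and P2ry6. The highest was 0.93, between Adora2b and P2ry12, the latter near 0 FPKM in its lower bounds. These values describe 8 points that share treatments, genotypes and 1 normalisation, and the highest r of so many genes is high by selection.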

How the data were processed

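RNA-seq libraries had been made by the authors from BMDC RNA with a kit that marks strand, in 16 samples, 2 per condition. The deposited table holds, for 23356 genes, an FPKM value for each of 8 conditions, with the bounds of its interval and a status. It was made by the authors with Cuffdiff, version 1.06 per the submitters' processing notes, which combined the replicates of a condition, so the precision of a value is that of its interval. The depth reached per sample is unknown, and the paper states only a target. The notes name mm9, but 98.953% of 21681 genes with a single annotated gene of that name overlapped it on GRCm38 (GENCODE M21), which is used for positions. The aligner, the annotation and the strand setting of Cuffdiff are not given in the sources used here. A strand-aware option is named in the paper only for SeqMonk, from which no value is used. Legends in the paper give another dose of c-di-GMP than the labels, which are followed here. The columns named TM173GDP were read as treated and those named TM173 as untreated Tmem173-/- BMDCs. A further set of 3 value columns, named for another knockout, was not used.

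Log2 values were computed after adding 0.1 FPKM. A gene was examined with at least 1 FPKM in a compared condition and status OK in both, and called where the fold exceeded 2 and the intervals did not overlap, in 11 comparisons. No p-value was computed. The code that makes the calls was checked on simulated data. Named genes were the members, the targeted genes, genes of the lists called at least once and, per member, the 3 genes of highest Pearson r. Dpp4 is in the lists of adenosine metabolism and of dendritic cells. The lists of plasmacytoid dendritic cells and B cells were read as well: their sums lay between 76.5 and 1262 FPKM, led by Bst2, and between 3.41 and 10.7 FPKM. The members and lists were chosen with earlier results of these data known. The alternatives replaced the pseudocount by 1 or 0.01 FPKM, left out the filter or raised it to 5 FPKM, and used a fold of 1.5 or 4, the fold alone or median centring. The tools were pandas 2.3.3 and numpy 2.4.6 in python 3.11.15, with figures by matplotlib 3.10.9.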

Additional observations from a re-analysis of the deposited data

Results flagged for a closer look

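In the knockouts, 2 members differed from WT in opposite directions. In treated BMDCs P2ry6 was higher in Tmem173-/- by 2.31 and lower in Irf3/7-/- by a log2 difference of -1.30. Entpd1 was higher in treated Irf3/7-/- by 1.17 and lower in treated Irf1-/- by a log2 difference of -1.17. Among the other nucleotide-degrading enzymes, in untreated BMDCs, Acpp was higher in Tmem173-/- by 1.02 and lower in Irf3/7-/- at -1.24, and Bst1 was higher in Tmem173-/- by 2.25 and lower in Irf1-/- at -1.50. Each of these differences from WT was called, but none was tested over samples, since the table holds 1 value per condition. Of these pairs of knockouts, only treated Irf1-/- and treated Irf3/7-/- BMDCs were compared directly, where Entpd1 was called at -2.34. Each pair shares its WT condition.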

How the results depend on the processing

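Of 27 calls of members in the 11 comparisons, 23 were kept under every alternative except a threshold of 4-fold, 11 were kept under that one as well, and none reversed. A threshold of 4-fold left 1 member called with treatment in WT and 1 in Irf1-/- BMDCs, P2ry14 in both. It left 3 in treated Tmem173-/-, 0 in treated Irf1-/- and 0 in treated Irf3/7-/- against treated WT, and 1 in untreated Tmem173-/- and 0 in untreated Irf1-/- against untreated WT. A threshold of 1.5-fold gave 3 members in treated Irf1-/- against treated WT and 5 in treated Irf1-/- against treated Irf3/7-/- BMDCs. Without the intervals, treated Irf1-/- against WT gave 2. A pseudocount of 1 FPKM and median centring each left 1 call, P2ry14, in untreated Irf1-/- BMDCs. A minimum of 5 FPKM removed the untreated Nt5e call. Over all genes, a threshold of 4-fold left 592 of 2291 calls with treatment in WT, 589 of 1952 in Irf1-/- and 500 of 2015 in Irf3/7-/- BMDCs. Of the calls against treated WT it left 1174 of 2980 in Tmem173-/-, 232 of 838 in Irf1-/- and 207 of 818 in Irf3/7-/- BMDCs. Against untreated WT it left 422 of 1221, 176 of 527 and 36 of 224, in the same order, and 381 of 1106 between treated Irf1-/- and Irf3/7-/- BMDCs. The 6 calls with treatment in Tmem173-/- BMDCs became 0 at 4-fold, 56 at 1.5-fold, 83 without the intervals, 10 without the filter, and 1 and 11 with pseudocounts of 1 and 0.01 FPKM. A minimum of 5 FPKM left 538 and 460 calls in treated Irf1-/- and Irf3/7-/- against WT, 800, 323 and 112 in untreated Tmem173-/-, Irf1-/- and Irf3/7-/- against WT, and 723 between treated Irf1-/- and Irf3/7-/- BMDCs. For Irf3/7-/- against WT, a pseudocount of 1 FPKM left 536 treated and 118 untreated, and 1.5-fold gave 350 untreated. Median centring moved no condition by more than 0.0333 on the log2 scale. No paired analysis was possible because the table holds 1 value per condition, with the replicates combined, and for the same reason no replicate could be left out.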
